A study of Mus musculus with 12 samples.

Results

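The cytochrome P450 (Cyp) genes were taken as every protein-coding mouse gene whose symbol is Cyp directly followed by a number, 99 of 21896 protein-coding genes in the RefSeq table. Their histone marks were read from every SEACR peak that overlapped a gene's mm10 RefSeq span, extended by 1 kb on both sides, by at least 1 base. This gave 405 of 226396 peaks, of which 119 of 58548 were H3K4me3, 134 of 62547 were H3K27ac and 152 of 105301 were H3K27me3. At least 1 peak of any mark lay on 90 of the 99 genes. The 39 genes of the Cyp2c, Cyp2j, Cyp4a and Cyp4f subfamilies, which metabolise arachidonic acid, were counted apart from the other 60 and are called the arachidonate set. They held 54 H3K4me3, 64 H3K27ac and 70 H3K27me3 peaks.

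The marks were profiled by CUT&RUN (chromatin bearing a mark is released by an antibody-tethered nuclease and sequenced) in crypt-derived mouse intestinal organoids grown in Matrigel with EGF, Noggin, R-spondin and CHIR-99021. The vehicle group received the vehicle and the AA group received 25 µM arachidonic acid, both for 6 days, and each group had 2 libraries per mark, 12 libraries in all. Strain, sex and age are not named, and nothing in the labels says that paired libraries are separate cultures, so p-values measure only the spread between these libraries. Ptger knockout organoids and a PGE2 derivative appear in the submitters' design text, in connection with H3K27ac. The labels of these libraries name no genotype and not that compound, so the genotype of the organoids is uncertain and applies alike to both groups as far as the labels go. Because the organoids were measured in bulk, a change in the mark per cell and a change in the share of cells that carry it cannot be told apart.

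Cytochrome P450 enzymes are haem proteins of the endoplasmic reticulum and mitochondria that insert oxygen into lipids, steroids, vitamins and foreign compounds, with electrons supplied by partner reductases. Cyp2c and Cyp2j enzymes act mostly as epoxygenases that turn arachidonic acid into epoxyeicosatrienoic acids, and Cyp4a and Cyp4f enzymes act mostly as omega-hydroxylases of fatty acids and eicosanoids. Intestinal epithelium is a major extrahepatic site of P450 expression, where Cyp3a and Cyp2c enzymes meet dietary compounds. H3K4me3 marks active or poised gene starts, H3K27ac marks active starts and enhancers, and H3K27me3 is the mark of Polycomb repression.

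The promoters of the genes on which the results turn are shown here, as the 250 bases before the start in RefSeq (GRCm38.p6), 5′ to 3′ on the gene's own strand. Cyp2c55 and Cyp2c68 are the starts at which H3K4me3 fell, Cyp2c65 and Cyp2c66 are the nearest active neighbours of Cyp2c55, Cyp2j6 had the highest H3K4me3 of the family, and Cyp27b1 is the start at which H3K27me3 rose. Capitals mark matches, on either strand, to the 4 letter strings searched. The string TATAAA is that of a TATA box, which positions the transcription machinery at many tissue-specific genes. The string CCAAT is that of a general promoter element bound by the trimeric factor known as nuclear factor Y. The string GCGTG is the core of the element through which the aryl hydrocarbon receptor acts on drug-metabolising genes. The string AGGTCA is the core of the sites of many nuclear receptors that control these genes.
Cyp2c55, chr19:39006769-39007018, plus strand: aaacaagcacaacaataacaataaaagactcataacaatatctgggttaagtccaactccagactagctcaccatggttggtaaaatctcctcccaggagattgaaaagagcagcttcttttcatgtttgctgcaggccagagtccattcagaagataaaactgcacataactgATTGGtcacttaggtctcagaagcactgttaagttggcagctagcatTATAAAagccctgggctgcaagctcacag
Cyp2c68, chr19:39741102-39741351, minus strand: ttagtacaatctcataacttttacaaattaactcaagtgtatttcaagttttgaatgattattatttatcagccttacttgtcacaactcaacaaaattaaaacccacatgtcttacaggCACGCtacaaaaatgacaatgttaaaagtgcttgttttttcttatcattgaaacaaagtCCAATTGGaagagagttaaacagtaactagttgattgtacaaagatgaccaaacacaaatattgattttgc
Cyp2c65, chr19:39060756-39061005, plus strand: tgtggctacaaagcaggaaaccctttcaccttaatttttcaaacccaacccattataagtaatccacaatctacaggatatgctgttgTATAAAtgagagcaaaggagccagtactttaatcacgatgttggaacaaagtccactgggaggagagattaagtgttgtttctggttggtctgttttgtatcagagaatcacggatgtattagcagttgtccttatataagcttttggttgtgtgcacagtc
Cyp2c66, chr19:39113648-39113897, plus strand: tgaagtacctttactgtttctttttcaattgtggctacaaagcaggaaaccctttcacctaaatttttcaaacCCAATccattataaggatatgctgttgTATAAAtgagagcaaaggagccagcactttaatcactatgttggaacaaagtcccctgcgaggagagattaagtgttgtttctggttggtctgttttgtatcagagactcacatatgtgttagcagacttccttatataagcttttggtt
Cyp2j6, chr4:96553652-96553901, minus strand: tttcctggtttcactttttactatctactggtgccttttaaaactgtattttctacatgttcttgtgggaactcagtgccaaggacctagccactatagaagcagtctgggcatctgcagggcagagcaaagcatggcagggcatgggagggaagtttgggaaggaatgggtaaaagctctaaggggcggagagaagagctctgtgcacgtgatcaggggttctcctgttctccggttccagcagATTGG
Cyp27b1, chr10:127047996-127048245, plus strand: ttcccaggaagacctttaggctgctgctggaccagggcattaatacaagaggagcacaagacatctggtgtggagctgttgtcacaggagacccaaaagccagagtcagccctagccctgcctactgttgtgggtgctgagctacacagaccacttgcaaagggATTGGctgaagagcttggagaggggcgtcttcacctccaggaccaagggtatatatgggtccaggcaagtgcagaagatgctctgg
In Cyp2c55 a TATA box match began 29 bases before the start, whereas the Cyp2c68 window held none. In Cyp2c65 and Cyp2c66 such a match began 162 and 150 bases before the start. The Cyp2c68 window had a match to the second string on each strand and 1 to the third. A match is a description of these letters and no test of binding.

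These promoters were typical of the family in being poor in CG dinucleotides. Promoters were listed for 77 of the 99 genes, 87 promoters in all, and their median CG count over 250 bases was 2, against 10 for all 21262 protein-coding promoters. At least 10 CG were found in 10.3% of P450 promoters and 50.1% of all promoters. The 9 P450 genes above that line were Cyp1b1, Cyp2r1, Cyp2s1, Cyp4f39, Cyp4v3, Cyp20a1, Cyp26a1, Cyp46a1 and Cyp51, and Cyp4f39 was the only member of the arachidonate set among them. TATAAA occurred in 34.5% of P450 promoters against 11.6% of all, and in 38.5% against 19.1% where only promoters with fewer than 10 CG were counted. CCAAT occurred in 41.4% against 35.4%, AGGTCA in 21.8% against 12.8% and GCGTG in 19.5% against 33.8%. Among promoters with fewer than 10 CG, GCGTG, which itself holds a CG, occurred in 14.1% against 13.9%. There CCAAT occurred in 42.3% against 36.6% and AGGTCA in 24.4% against 17.3%. An H3K4me3 peak lay at the start of 32 of the 68 P450 genes with fewer than 10 CG at every listed start, 47.1%, where the share over all 7994 such genes was 34.4%. Of the 9 CG-rich P450 genes, 7 had one, and the share over all CG-rich genes was 93.5%. H3K27ac lay at the start of 34 of the same 68 P450 genes, 50.0%, against 26.8% of the 7994. It lay at 5 of the 9 CG-rich P450 genes, against 76.7% of all CG-rich genes.

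The libraries set the precision of what follows. The deposited peak score is a mean coverage per base, scaled by a constant for each library, so that levels can be compared between peaks of different length within a mark but not between marks. Median coverage per base before scaling was 3.38 and 2.35 units for H3K4me3 in vehicle but 1.37 and 1.46 in AA. It ran from 1.95 to 2.76 for H3K27ac and from 1.19 to 1.85 for H3K27me3. The second AA H3K4me3 library stood apart, with rank correlations of 0.64 to 0.72 with the other libraries over all peaks, where the others correlated at 0.81 to 0.82. H3K27ac libraries correlated at 0.51 to 0.65, lowest between the vehicle libraries, and H3K27me3 libraries at only 0.12 to 0.29. H3K4me3 peaks lay at the starts of 10 of 10 intestinal epithelial markers, 2 of 8 fibroblast, 0 of 6 blood, 2 of 6 endothelial and glial and 3 of 8 hepatocyte markers, and the summed epithelial score was 8.20 and 7.82 in vehicle and 10.3 and 8.97 in AA. The summed score of the 3 marked genes on the hepatocyte list was 1.76 and 1.63 in vehicle and 1.22 and 0.992 in AA. Most of that sum was Cps1, at 1.05 and 0.997 in vehicle and 0.766 and 0.690 in AA. Another of the 3, Ttr, fell (log2 change −0.81, limma adjusted p = 0.0391). The part of such markers in the P450 results was not tested.

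Counted without regard to CG content, the active marks were less frequent at P450 starts than over all protein-coding genes. Among genes with fewer than 10 CG at every listed start both were more frequent at P450 starts, as given above. Marked and unmarked starts stood side by side within families. A start was called marked where a peak lay within 1 kb of a listed start, or of either end of the gene for the genes whose strand the reference tables do not give. H3K4me3 lay at 47 of 99 P450 starts (47.5%, against 66.0% of 21627 protein-coding genes), H3K27ac at 43 (43.4% against 53.1%) and H3K27me3 at 27 (27.3% against 31.4%). Both active marks without H3K27me3 were found at 27 genes (27.3% against 40.7%), and 33 genes had none of the 3 marks at the start (33.3% against 22.9%). No peak of any mark lay anywhere on 9 genes, among them the adrenal steroid genes Cyp11b1, Cyp11b2 and Cyp21a1, named after their values were seen.

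In the arachidonate set, H3K4me3 lay at the start of 6 of 9 Cyp4f genes, 7 of 15 Cyp2c genes, 4 of 7 Cyp2j genes and 1 of 8 Cyp4a genes. H3K27ac lay at 7 Cyp4f, 8 Cyp2c, 3 Cyp2j and 1 Cyp4a starts. The Cyp4a family, which encodes peroxisome proliferator-inducible omega-hydroxylases of liver and kidney, had H3K27me3 somewhere on 7 of 8 genes. So did 6 of 7 Cyp2j, 7 of 9 Cyp4f and 9 of 15 Cyp2c genes, and 68 of all 99 P450 genes. No Cyp2c gene had H3K27me3 at its start. Their starts divided into 7 with both active marks (Cyp2c29, Cyp2c38, Cyp2c55, Cyp2c65, Cyp2c66, Cyp2c68 and Cyp2c70), Cyp2c37 with H3K27ac alone, and 7 with no mark.

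Cyp3a, the subfamily of broad drug-metabolising enzymes of gut and liver, showed a pattern of its own. H3K27ac lay at 7 of 9 Cyp3a starts but H3K4me3 at only 2, Cyp3a13 and Cyp3a25. H3K27ac without either other mark was found at 7 P450 starts (7.07%, against 1.17% of all protein-coding genes), 4 of them the Cyp3a genes Cyp3a11, Cyp3a41a, Cyp3a44 and Cyp3a59, of which the last 3 were chosen after their values were seen. At Cyp3a11 the H3K27ac score was 0.304 and 0.256 in vehicle and 0.275 and 0.251 in AA, at percentile 82.0 of all H3K27ac peaks. At Cyp3a59 it was 0.234 and 0.259 in vehicle and 0.247 and 0.263 in AA. The groups overlapped at both. Promoters within this subfamily are near copies of each other, with identities of 99.6% between Cyp3a41a and Cyp3a41b and 94.8% between Cyp3a25 and Cyp3a59, so reads may have been assigned to the wrong copy or lost. How multiply mapping reads were treated is not given in the sources used here.

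H3K4me3 differed between AA and vehicle at 3 of the 119 P450 peaks (limma, adjusted p below 0.05), where 2.92% of all H3K4me3 peaks passed, 1.54% higher and 1.38% lower in AA. All 3 lay on genes of the arachidonate set, of which 54 peaks were tested. H3K4me3 fell at the starts of Cyp2c55 and Cyp2c68 and rose at a short peak inside Cyp4f14. At starts, 2 of 53 P450 peaks were called (3.77%), where 6.17% of all gene-start peaks passed. Both were among the 20 start peaks of the arachidonate set. Over all P450 peaks the share called was 2.52%, no higher than the background, and in the arachidonate set it was 5.56%, which rests on these 3 peaks. The split of 1 rise and 2 falls depended on the scaling. It became 3 and 1 with each library centred on its median peak and 1 and 6 with quantile normalization. With libraries centred on the strongest 25% of peaks it became 1 and 10. Over all 58548 H3K4me3 peaks these 3 scalings called 6106, 2368 and 5446, of which 91.0%, 41.4% and 27.5% rose.

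Cyp2c55 encodes an epoxygenase and hydroxylase that is abundant in the mouse large intestine. Its H3K4me3 start peak, at chr19:39003979-39010751 (mm10), scored 0.654 and 0.699 in vehicle and 0.327 and 0.304 in AA. Both AA libraries lay below both vehicle libraries, and the gap between groups was wider than the gap within either. The log2 change was −1.04 ± 0.23 (SE), with an adjusted p of 0.00114 in limma. The fall stayed between −1.09 and −0.99 when any 1 library was left out, but the call was lost without vehicle replicate 1 (adjusted p = 0.81) or vehicle replicate 2 (adjusted p = 0.884). Over all H3K4me3 peaks those settings gave 36 and 32 calls, against 1710 with all libraries.

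Cyp2c68 is a member of the same subfamily in the same chromosome 19 cluster. Its H3K4me3 start peak, at chr19:39738766-39742338, scored 0.713 and 0.723 in vehicle and 0.409 and 0.435 in AA. The groups did not overlap. H3K4me3 fell by 0.73 ± 0.21 on the log2 scale (limma adjusted p = 0.0234). The call was lost with median centring of the libraries (adjusted p = 0.0904), on MACS2 peaks (0.111) and without either vehicle library (0.839 and 0.884). The promoter of Cyp2c68 was 91.3% identical to that of Cyp2c69, which had no H3K4me3 or H3K27ac peak at its start.

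At the neighbours of Cyp2c55 no H3K4me3 start peak passed. Cyp2c65, whose promoter shared 54.9% of its bases with that of Cyp2c55, had an H3K4me3 start peak of 0.665 and 0.598 in vehicle and 0.751 and 0.656 in AA, with overlapping groups and a change of 0.15 ± 0.19. Cyp2c66, next in line and 74.6% identical to Cyp2c65 in its promoter, scored 0.410 and 0.401 in vehicle and 0.314 and 0.300 in AA. Here the groups did not overlap, and the change of −0.38 ± 0.27 did not pass (limma adjusted p = 0.495). Whether Cyp2c55 differed from Cyp2c65 in its change was not tested. Of the remaining Cyp2c starts, Cyp2c29 scored 0.158 and 0.304 in vehicle and 0.0964 and 0.0943 in AA, and Cyp2c70 scored 0.118 and 0.170 in vehicle and 0.0920 and 0.0481 in AA; neither passed. Cyp2c38 was the start with the opposite order, at 0.132 and 0.0977 in vehicle and 0.196 and 0.141 in AA, also without passing.

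**Figure D1:**
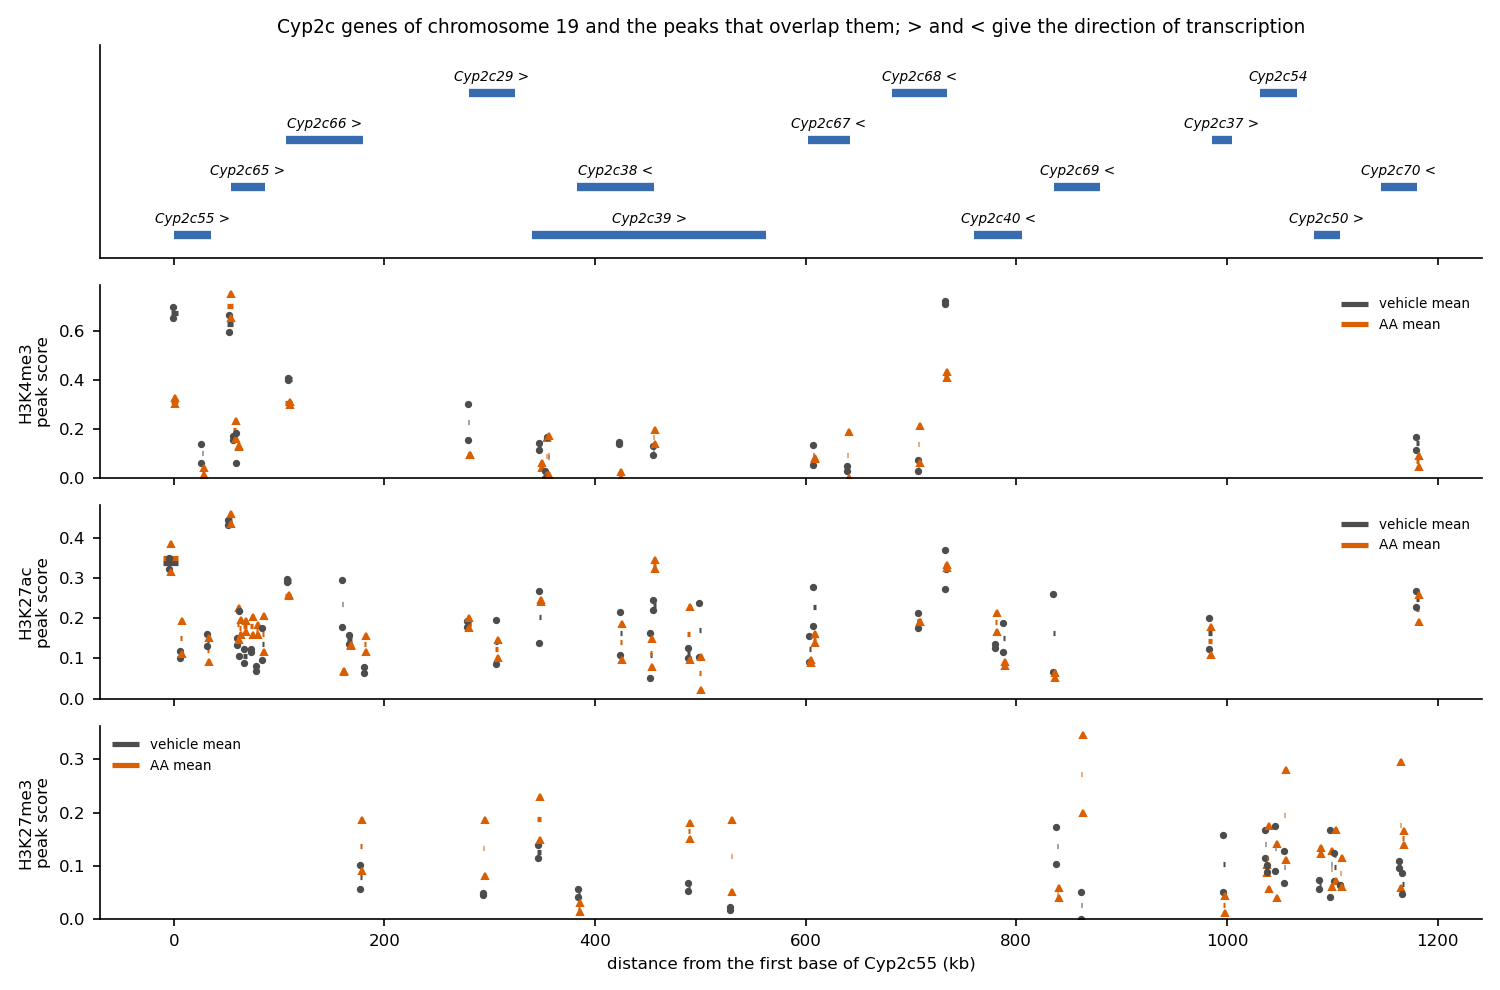
The Cyp2c cluster on chromosome 19 by distance from the first base of Cyp2c55 in kb, with gene spans on top and, below, the score of each overlapping peak per mark, as bars for group means and points for libraries (circles vehicle, triangles AA). H3K4me3 at Cyp2c55 and Cyp2c68 was lower in both AA libraries, while the groups overlapped for H3K27ac at the same starts.

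H3K27ac passed the test at neither of the starts where H3K4me3 fell. At Cyp2c55 the H3K27ac peak was 14275 bp long, at percentile 99.7 of H3K27ac peak lengths, and scored 0.351 and 0.323 in vehicle and 0.384 and 0.316 in AA, a change of 0.04 ± 0.17. At Cyp2c68 the change was 0.04 ± 0.18, with 0.368 and 0.273 in vehicle and 0.324 and 0.333 in AA. The groups overlapped at both. A test of the difference itself, H3K4me3 change minus H3K27ac change over overlapping peaks, was chosen after these values were seen. It gave −1.08 ± 0.24 at Cyp2c55 (limma adjusted p = 0.123) and −0.77 ± 0.24 at Cyp2c68 (adjusted p = 0.205). Neither passed, and 0 of 69 pairs on P450 genes did, where 0.0264% of all 34084 pairs passed.

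The strongest H3K4me3 start of the family was that of Cyp2j6, an epoxygenase expressed along the mouse small intestine. It scored 1.04 and 1.02 in vehicle and 1.27 and 1.05 in AA, at percentile 98.1 of all H3K4me3 peaks. Both AA libraries lay above vehicle, but the change of 0.17 ± 0.14 did not pass. It also had the highest H3K27ac mean over the 4 libraries in the arachidonate set, with 0.466 and 0.408 in vehicle and 0.483 and 0.449 in AA. Cyp2j9 scored 0.702 and 0.757 in vehicle and 0.722 and 0.618 in AA for H3K4me3, with overlapping groups. The other Cyp2j starts were weak, Cyp2j5 at 0.146 and 0.119 in vehicle and 0.0590 and 0.150 in AA and Cyp2j13 at 0.102 and 0.0401 in vehicle and 0.0160 and 0.120 in AA.

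Among the Cyp4f genes, whose products inactivate leukotrienes and other eicosanoids by omega-hydroxylation, no start peak passed. Cyp4f17 scored 0.773 and 0.859 in vehicle and 0.875 and 0.617 in AA at the stronger of its 2 peaks, at a gene end, since its strand is not in the tables. Cyp4f13 scored 0.556 and 0.545 in vehicle and 0.907 and 0.554 in AA; the second AA library fell within the vehicle range, and without it the change became 0.70 with an adjusted p of 2.1e-05. Cyp4f15 had weak H3K4me3 of 0.182 and 0.189 in vehicle and 0.0648 and 0.0813 in AA, a change of −1.11 ± 0.53 that did not pass (adjusted p = 0.272). The Cyp4f14 rise was not at its start, where the score was 0.515 and 0.465 in vehicle and 0.579 and 0.466 in AA. It was at a peak of 293 bp inside the gene, at chr17:32905414-32905706, with 0.169 and 0.161 in vehicle and 0.298 and 0.587 in AA. Its change was 1.23 ± 0.31 (limma adjusted p = 0.00895), and without the second AA library it was 0.77 and did not pass (adjusted p = 0.139). The call was also lost without either vehicle library (0.795 and 0.884) and on MACS2 peaks (0.162). Cyp4a32 was the sole Cyp4a start with H3K4me3, at 0.267 and 0.175 in vehicle and 0.142 and 0.0940 in AA, and did not pass.

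**Figure D2:**
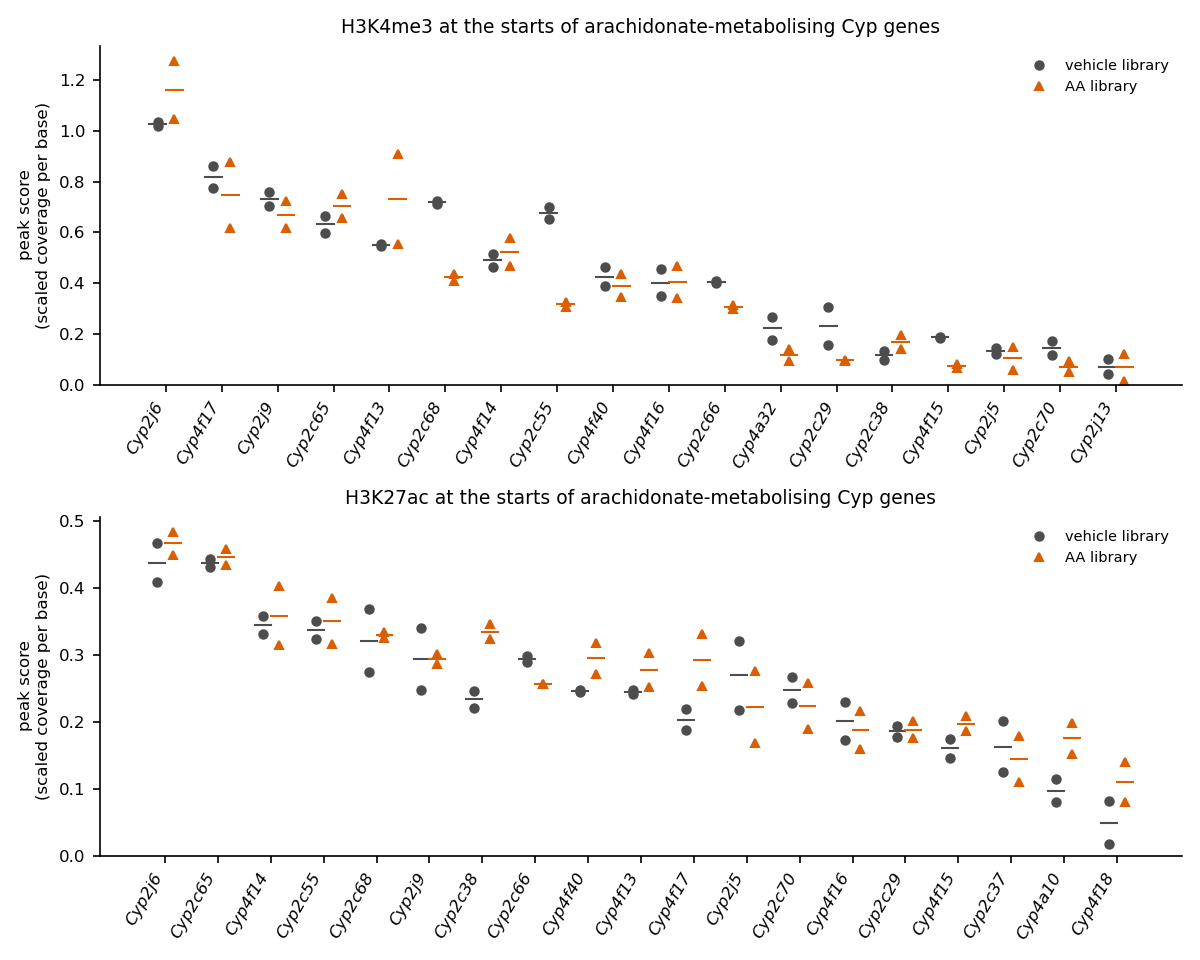
Peak score (scaled coverage per base) of each library at the strongest start peak of every arachidonate-set gene that had one, H3K4me3 above and H3K27ac below, with short lines for group means of 2 libraries; for genes with no strand in the tables either end counts as the start. Cyp2c55 and Cyp2c68 stand out in H3K4me3, with both AA libraries far below both vehicle libraries, and not in H3K27ac.

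Outside the arachidonate set, 0 of 65 H3K4me3 peaks passed limma, while 11 had an unadjusted p below 0.05 (2 higher and 9 lower in AA), 16.9% against 16.2% of all H3K4me3 peaks, which divided into 7.94% higher and 8.24% lower. Among sterol and bile acid genes, Cyp51, the lanosterol demethylase of cholesterol synthesis, had strong H3K4me3 with overlapping groups, at 0.785 and 0.771 in vehicle and 0.738 and 0.773 in AA. Cyp27a1, the mitochondrial sterol hydroxylase, scored 0.577 and 0.662 in vehicle and 0.906 and 0.746 in AA. Its groups did not overlap, and its change of 0.40 ± 0.18 did not pass (adjusted p = 0.224), but passed with median centring (0.61, adjusted p = 0.0114). Cyp39a1 shared its start peak with the start of Slc25a27, so that the score cannot be assigned to either gene. Cyp7b1, an oxysterol hydroxylase, scored 0.286 and 0.219 in vehicle and 0.151 and 0.0851 in AA at a gene end, and did not pass.

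Cyp11a1, the side-chain cleavage enzyme that starts steroid synthesis, had the second strongest P450 H3K4me3 start in vehicle, 0.840 and 0.878, against 0.625 and 0.587 in AA. The groups did not overlap, and the change of −0.49 ± 0.18 missed the threshold (limma adjusted p = 0.105). It passed with quantile normalization (−0.67, adjusted p = 1.1e-06) and with centring on the strongest 25% of peaks (−0.64, adjusted p = 4.4e-06). With median centring it did not pass. The remaining steroid genes Cyp17a1 and Cyp19a1 were weakly marked.

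No aryl hydrocarbon receptor target passed. Cyp1a1, the classic inducible member, scored 0.347 and 0.364 in vehicle and 0.363 and 0.358 in AA, and Cyp1b1 scored 0.370 and 0.384 in vehicle and 0.537 and 0.441 in AA, a change of 0.35 ± 0.24 that did not pass. For vitamin D, Cyp27b1, the activating hydroxylase, scored 0.765 and 0.711 in vehicle and 0.806 and 0.647 in AA, with overlapping groups. In Cyp26b1, which degrades retinoic acid, a body peak of 6487 bp scored 0.458 and 0.401 in vehicle and 0.243 and 0.217 in AA. That change of −0.83 ± 0.28 missed the threshold (limma adjusted p = 0.0789). It passed with quantile normalization (−0.75, adjusted p = 0.0392) and with centring on the strongest 25% of peaks (−0.99, adjusted p = 0.000715). With median centring it did not pass. The orphan Cyp20a1 scored 0.679 and 0.668 in vehicle and 0.831 and 0.635 in AA.

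No H3K4me3 peak of the xenobiotic-metabolising genes, mostly of the Cyp2 and Cyp3 families, passed, and 3 of 29 had an unadjusted p below 0.05, all lower in AA, 10.3% against 16.2% of all peaks. Both AA libraries lay below both vehicle libraries at 17 of these 29 peaks, 58.6%, where 30.5% of all H3K4me3 peaks did so, and above them at 1, where 18.3% of all peaks did. Their median change was −0.54, where the median of all peaks was −0.19 and that of peaks of similar level was −0.35. The sign of the group's median held under the 3 other scalings. The median was −0.32 with median centring, −0.24 with quantile normalization and −0.69 with centring on the strongest 25%. For all peaks it was 0.02, −0.03 and −0.34, and peaks of similar level were not compared under these scalings. Lower scores in AA were not particular to this group. Of 12 sterol and bile acid peaks, 7 had both AA libraries below both vehicle libraries (58.3%) and 2 had both above. The median change of those 12 peaks was −0.50, and −0.29, −0.40 and −0.65 under the same scalings. Cyp2s1 scored 0.549 and 0.560 in vehicle and 0.401 and 0.454 in AA, Cyp2d26 0.474 and 0.490 in vehicle and 0.428 and 0.411 in AA, and Cyp3a13 0.533 and 0.491 in vehicle and 0.616 and 0.520 in AA. The groups did not overlap at Cyp2s1 and Cyp2d26 and overlapped at Cyp3a13.

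Of the 53 P450 start peaks of H3K4me3, 24 had both AA libraries below both vehicle libraries (45.3%) and 5 had both above (9.43%). Of all 13801 gene-start peaks, 16.1% were below and 45.8% above. Level moves with this difference: P450 starts had a median score of 0.314 against 0.662 for all gene starts, and the change over all gene-start peaks rose with level, from a median of −0.86 in the lowest decile of level to 0.28 in the highest. Gene-start peaks of decile 8, which holds the median P450 start, had a median change of −0.12, with 32.4% below and 15.6% above, and the P450 median was −0.22. The median over all 119 P450 peaks was −0.22 with the deposited scaling and 0.00 with median centring, and for all peaks it was −0.19 and 0.02, so no direction is given for the family as a whole.

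**Figure D3:**
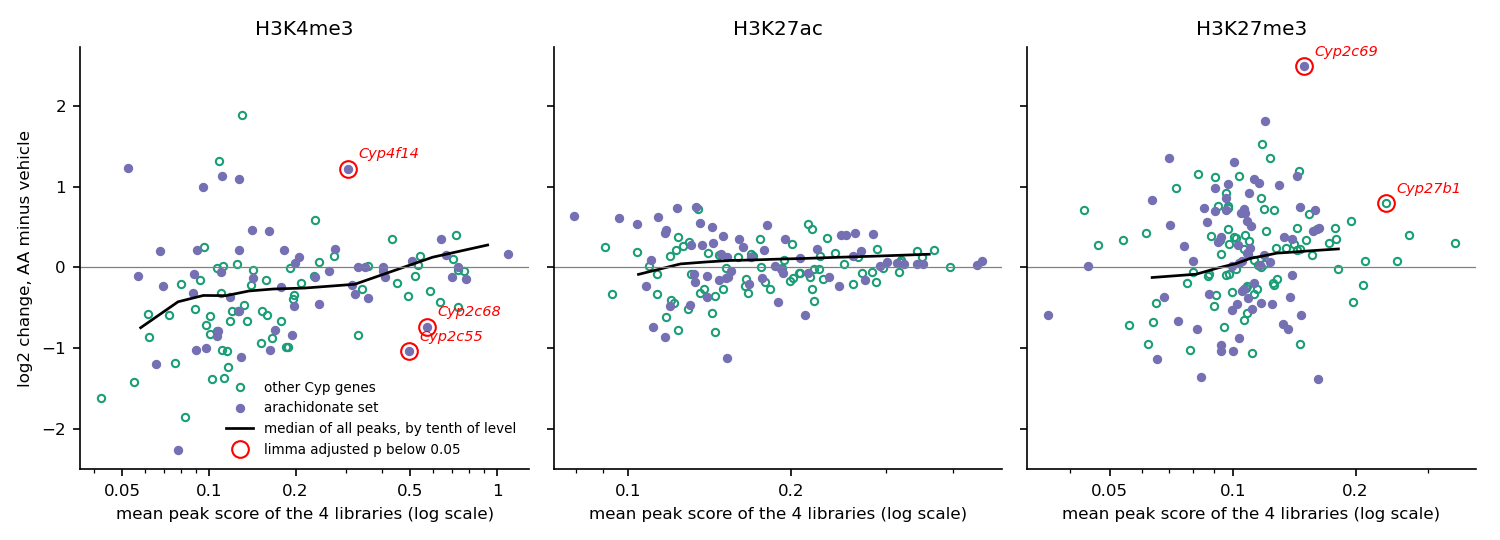
Log2 change (AA minus vehicle) of every P450 peak against its mean score (log axis), filled for the arachidonate set and open for other Cyp genes, with the median change of all peaks by decile of level as a black line. Red rings mark the 5 peaks that passed limma, which sit off the line while most P450 peaks scatter around it.

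No P450 peak passed the test for H3K27ac. Of 134 peaks, 0 passed limma, where 0.2% of all H3K27ac peaks did (0.155% higher and 0.0448% lower). An unadjusted p below 0.05 was found at 6, 3 higher and 3 lower, 4.48% against 7.71% of all peaks (6.36% higher and 1.34% lower). The strongest starts were Cyp2c65 (0.431 and 0.443 in vehicle, 0.458 and 0.434 in AA), Cyp2j6, Cyp4f14 (0.357 and 0.331 in vehicle, 0.402 and 0.314 in AA), Cyp51 and Cyp2c55. At each of these 5 the change lay within 0.21 of 0 on the log2 scale. The start of Cyp2c38, inside the span of Cyp2c39, had the lowest unadjusted p among starts, with 0.246 and 0.220 in vehicle and 0.323 and 0.345 in AA. Its groups did not overlap, and its change of 0.42 ± 0.19 did not pass (limma adjusted p = 0.580). Both AA libraries lay above both vehicle libraries at 20 of the 134 peaks, 14.9% against 28.5% of all H3K27ac peaks. They lay below at 19, 14.2% against 10.7%. Among the 64 arachidonate-set peaks 15 were above (23.4%) and 7 below (10.9%). Among the 71 of other P450 genes 5 were above (7.04%) and 12 below (16.9%). At the starts of the arachidonate set, 6 of 19 were above, 31.6%, against 39.5% of all gene starts. At 1 start they were below, 5.26% against 5.75%. Across the 34 genes with both active marks at the start, vehicle levels of H3K4me3 and H3K27ac correlated with Pearson r = 0.540 on the log2 scale and Spearman rho = 0.462; the points share the libraries and the cells.

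H3K27me3 rose at 2 of the 152 P450 peaks and fell at none (limma, adjusted p below 0.05), 1.32%, where 0.545% of all H3K27me3 peaks passed (0.498% higher and 0.0475% lower). An unadjusted p below 0.05 was found at 15 higher and 3 lower peaks, 11.8% together against 9.39% of all peaks (7.7% higher and 1.69% lower). Both AA libraries lay above both vehicle libraries at 45 peaks, 29.6% against 26.3%, and below at 27, 17.8% against 13.4%. The call at a start, among 36 P450 start peaks where 2.7% of all gene-start peaks passed, was that of Cyp27b1, at chr10:127047475-127052996, with 0.142 and 0.187 in vehicle and 0.277 and 0.341 in AA. The groups did not overlap, and H3K27me3 rose by 0.80 ± 0.17 on the log2 scale (adjusted p = 0.00456). The same start carried H3K4me3 with overlapping groups and weak H3K27ac of 0.170 and 0.240 in vehicle and 0.206 and 0.116 in AA. The other was a peak of 650 bp inside Cyp2c69, at chr19:39868868-39869517, with 0.0514 and 0 in vehicle and 0.199 and 0.346 in AA (adjusted p = 0.0255). Vehicle replicate 2 is listed at 0 there, so the fitted change depends on the pseudocount and no fold is given. Neither call held when any 1 library was left out (adjusted p from 0.205 to 0.488 for Cyp27b1 and from 0.207 to 0.416 for Cyp2c69) or when libraries were centred on their median (0.224 and 0.212).

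The strongest H3K27me3 starts in vehicle were those of Cyp24a1, Cyp4x1, Cyp46a1 and Cyp1b1. Cyp24a1, the vitamin D catabolic enzyme, scored 0.316 and 0.307 in vehicle and 0.379 and 0.401 in AA, and Cyp46a1, a cholesterol hydroxylase best known from neurons, scored 0.231 and 0.225 in vehicle and 0.334 and 0.294 in AA. The Cyp24a1 peak also holds the start of Pfdn4, so that its score cannot be assigned to either gene. Both had non-overlapping groups and changes that did not pass, 0.30 ± 0.09 (limma adjusted p = 0.128) and 0.41 ± 0.13 (adjusted p = 0.159). Cyp1b1 and Cyp4x1 ran the other way, Cyp1b1 from 0.228 and 0.224 to 0.172 and 0.207 and Cyp4x1 from 0.256 and 0.208 to 0.155 and 0.171, also without passing. Over the 36 P450 start peaks the groups were non-overlapping and higher in AA at 16 (44.4%) and lower at 6 (16.7%), against 37.3% and 14.8% of all gene-start peaks of this mark.

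**Figure D4:**
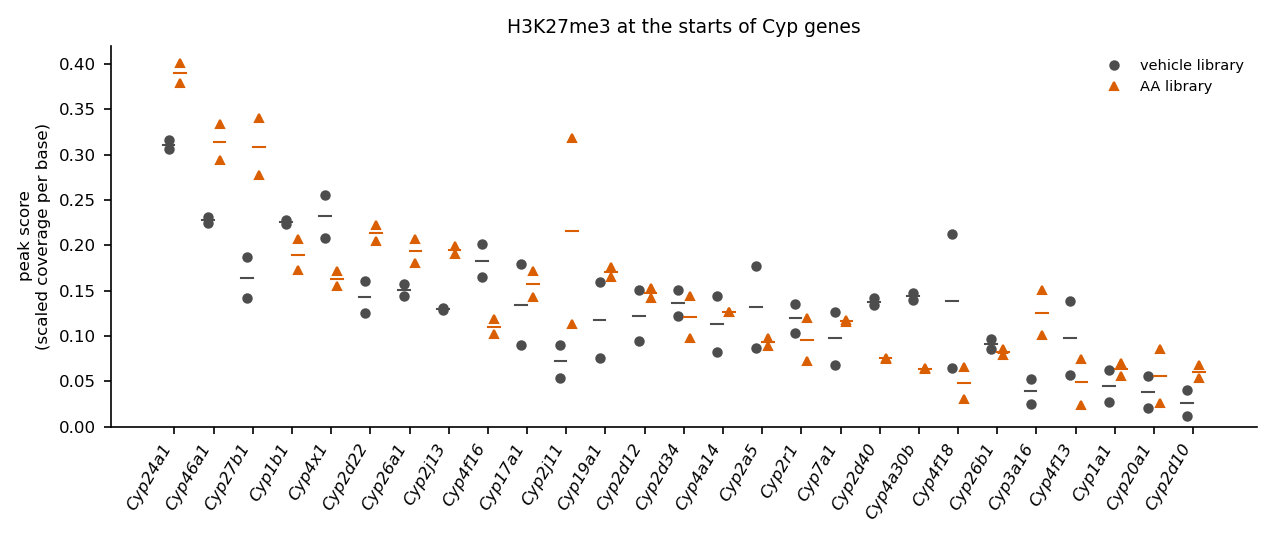
H3K27me3 peak score (scaled coverage per base) of each library at the strongest start peak of each of the 27 P450 genes that had one, with short lines for group means of 2 libraries. Cyp24a1 (a peak shared with the start of Pfdn4), Cyp46a1 and Cyp27b1 are higher in both AA libraries, and Cyp27b1 alone passed limma.

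Genes that serve the P450 system were read at their starts from lists. For H3K4me3, 6.17% of all gene-start peaks passed, a share at which lists this short would hold few calls or none. Of 5 redox partners with a start peak 0 passed, among them Por, the reductase that feeds electrons to microsomal P450s (0.605 and 0.618 in vehicle, 0.651 and 0.607 in AA). Among 4 epoxide hydrolases, which hydrolyse the epoxides made from arachidonic acid, 0 passed, and among 8 haem synthesis genes 0 passed. Ephx2, the soluble epoxide hydrolase, scored 0.306 and 0.302 in vehicle and 0.409 and 0.443 in AA, a change of 0.45 ± 0.26 that did not pass (limma adjusted p = 0.388). Tbxas1, the thromboxane synthase, scored 0.418 and 0.388 in vehicle and 0.266 and 0.239 in AA and did not pass either.

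Of 17 regulators of P450 genes, all with H3K4me3 at the start, 1 rose and 1 fell, where 6.17% of all gene-start peaks passed. Ahr, the aryl hydrocarbon receptor, scored 0.958 and 0.797 in vehicle and 1.40 and 1.20 in AA, a rise of 0.56 ± 0.14 (limma adjusted p = 0.00913), while its targets Cyp1a1 and Cyp1b1 did not pass. Nr0b2, the bile acid-induced repressor known as SHP, scored 0.450 and 0.523 in vehicle and 0.110 and 0.0827 in AA, a fall of 2.08 ± 0.34 (adjusted p = 1.19e-06). Both calls were lost without either vehicle library, with adjusted p of 0.226 and 0.571 for Nr0b2 and 0.784 and 0.884 for Ahr. For H3K27me3, Ppara (1.54 ± 0.33, adjusted p = 0.00728) and Nr5a2 (1.62 ± 0.37, adjusted p = 0.0143) rose at their starts among 6 regulators with a peak, where 2.7% of all gene-start peaks of this mark passed. Neither call held when any 1 library was left out, with median centring (adjusted p = 0.115 and 0.148), with quantile normalization (0.0702 and 0.106) or with a pseudocount 10 times larger (0.125 and 0.138). For H3K27ac 0 regulators passed.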

How the data were processed

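Per the labels, H3K4me3, H3K27ac and H3K27me3 were profiled by CUT&RUN in 12 libraries; per the submitters' processing notes the build was mm10 and SEACR and MACS2 called peaks, and no aligner is given in the sources used here. The deposited table gives a signal value (score) for each peak and library, on a peak set shared by all libraries of a mark. Multiplied by peak length, each library's scores fell on whole steps of a single size (100% of values below 1000 steps, tolerance 0.1 step), so the deposited signal is coverage per base times a library constant of unstated origin. All row names were mapped to samples, the rows named Control as vehicle, the only group left in each mark. Limma 3.58.1 in R 4.3.3 (trend, robust) was fitted per mark to log2(score + pseudocount), AA minus vehicle, on all SEACR peaks, with Benjamini-Hochberg adjustment; changes are on that scale and understate low peaks. The pseudocount was the 5th percentile of positive values (0.0253, 0.0693 and 0.0329 for H3K4me3, H3K27ac and H3K27me3). The fit was tested on simulated data. Genes, starts and promoter sequences came from RefSeq (GRCm38.p6). Named were genes with a called peak, the 8 strongest starts per mark, arachidonate-set genes with a marked start and a fixed list. Members and lists were chosen with earlier results of these data known.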

Additional observations from a re-analysis of the deposited data

How the results depend on the processing

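The number of P450 H3K4me3 peaks called, 3, became 7 with quantile normalization, 11 with centring on the strongest 25% of peaks and 0 with limma without trend and robust fitting; leaving out 1 library gave 0 to 14. In the arachidonate set the 3 H3K4me3 calls became 0 without trend and robust fitting, and 0 to 7 with 1 library left out. The 2 H3K27me3 calls became 0 with median centring, centring on the strongest 25%, a pseudocount 10 times larger, the strongest 25% of peaks only, MACS2 peaks, and no trend and robust fitting, and with each library left out they ranged from 0 to 0. They became 1 with quantile normalization (a fall at Cyp4f39, named after its values were seen), with peaks above the median level and at a threshold of 0.01. The single arachidonate H3K27me3 call became 0 under all of these except quantile normalization, which gave 1; leaving out 1 library gave 0. H3K27ac gave 0 calls under every alternative run. With the replicate number as a block, 3 H3K4me3, 0 H3K27ac and 3 H3K27me3 peaks were called, 2 of the latter in the arachidonate set; same-numbered libraries did not deviate together (correlations of −0.0023, 0.0085 and 0.0025), so the numbers were not taken as pairs. No named change reversed past the threshold. The extension (0 or 5 kb) and a 50% overlap changed no count. With 2 libraries per group and a median coverage of 1.19 to 3.38 units per base, changes at weak peaks could not be resolved. The P450 counts moved with those of the whole mark in some settings and not in others. Median centring called 6106 H3K4me3 peaks over the whole mark but 4 P450 peaks. On MACS2 peaks, 2304 of 36552 were called over the whole mark and 2 on P450 genes. Limma without trend and robust fitting called 0 peaks of any mark over the whole series. Over all 58548 H3K4me3 peaks the main fit called 1710. Quantile normalization called 2368 of them and centring on the strongest 25% called 5446. Leaving out 1 library also moved the H3K4me3 count over all peaks, so its range for P450 peaks is not particular to them. The causes of these shifts in the counts were not tested.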
